A study of Mus musculus with 6 samples.

Results

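Polycomb repressive complex 1 (PRC1) subunits were followed in mouse embryonic stem (ES) cells transfected with an shRNA against Chd4. The 9 subunit genes Phc1, Phc2, Ring1, Rnf2, Bmi1, Pcgf6, Cbx2, Cbx7 and Cbx8 were taken by symbol, and all 12 of their probes are described, out of 19057 named genes on the arrays. The rule goes by symbol and uses no measured value. PRC1 attaches ubiquitin to histone H2A and compacts chromatin at developmental genes. Canonical PRC1 holds a Cbx protein, which binds the histone H3 methyl mark left by PRC2, and a Phc protein, whose SAM domain links complexes into clusters. Variant PRC1 carries Rybp or Yaf2 in place of Cbx and reaches chromatin through DNA-binding partners. Every form shares a Ring1 or Rnf2 ligase and a Pcgf partner. ES cells are known for PRC1 with Cbx7 and Phc1, and differentiated cells for forms with Cbx2 or Cbx8.

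Total RNA from 3 control and 3 shChd4 samples was hybridised to Illumina mouse BeadChip arrays. Both groups were ES cells kept with LIF and 15% serum on feeder fibroblasts whose division mitomycin C had blocked. pHYPER shRNA vectors were electroporated, and puromycin was given from 24 h after transfection for 48 h. The labels name the groups control and shRNA Chd4 but do not say what the control vector carried, nor whether feeder cells were removed. They give no ES cell line, and each shChd4 array carries a sample code of its own that they do not explain. Nothing in them says that the samples of a group are separate cultures, and a p-value here reflects the spread of these arrays alone, which may be technical. Each group was run on a BeadChip of its own, and the effects of chip and shRNA cannot be told apart. Arrays are numbered only as names.

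Chd4, the ATPase of the NuRD remodelling complex, served as the check of the labels. On its brightest probe it was left at 24.3% of the control intensity (log2 fold change -2.04 ± 0.16, SE, n = 3 per group; limma adjusted p = 6.33e-06). Its other detected probes changed less, by -1.86 ± 0.22 and -1.26 ± 0.16 (SE; limma adjusted p = 6.31e-05 and 0.000130 over all probes tested). Detected probes numbered 15817 to 16120 on control arrays and 17070 to 17522 on shChd4 arrays. Across the genes tested, arrays of 1 group correlated with r from 0.983 to 0.989 and arrays of different groups with r from 0.915 to 0.950. All 12 ES cell markers listed were detected, among them Pou5f1, Nanog and Zfp42. Their mean log2 intensity was 10.73 to 10.94 on control arrays and 10.04 to 10.49 on shChd4 arrays. Of the 12, 0 rose and 6 fell, against 19.9% and 18.2% over all genes tested. Of 24 fibroblast markers, 19 were tested, 18 rose and 0 fell, against the same 19.9% and 18.2%. The summed normalised intensity of the 19 was 2151 to 3447 on control arrays and 15416 to 21074 on shChd4 arrays. Of the fibroblast markers, Lum, Col1a1 and Pdgfrb were below detection in all 3 controls, and Fap and Postn on all 6 arrays. Lum, Col1a1 and Pdgfrb passed the detection filter only through the shChd4 arrays, where they were higher. The direction of these 3 is not independent of that filter. With only genes detected on all 6 arrays, 13 fibroblast markers were called. The part of the fibroblast signal in the subunit changes was not tested. In bulk RNA, fewer cells of a type and less RNA per cell cannot be told apart.

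Among the subunits, the polyhomeotic paralogs moved apart after Chd4 shRNA, with Phc1 lower and Phc2 higher. Cbx7 and Ring1 fell by smaller amounts, Bmi1 rose from below detection, and Pcgf6 and Cbx2 did not pass the test. Rnf2 and Cbx8 were too close to background to be tested. A gene was tested if its brightest probe was detected, at a detection p under 0.05, on at least 3 of the 6 arrays, and it was called at a limma adjusted p under 0.05 over all 9808 genes tested. Of the 7 subunits tested, 2 rose, 3 fell and 2 did not pass. On these arrays 38.1% of all genes tested were called, 19.9% as higher and 18.2% as lower, so a call alone sets no subunit apart. Bmi1 passed the detection filter only through the shChd4 arrays, where it was higher, so its direction is not independent of that filter. The groups did not overlap for 5 of the 7 subunits, against 50.3% of all genes tested.

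**Figure D1:**
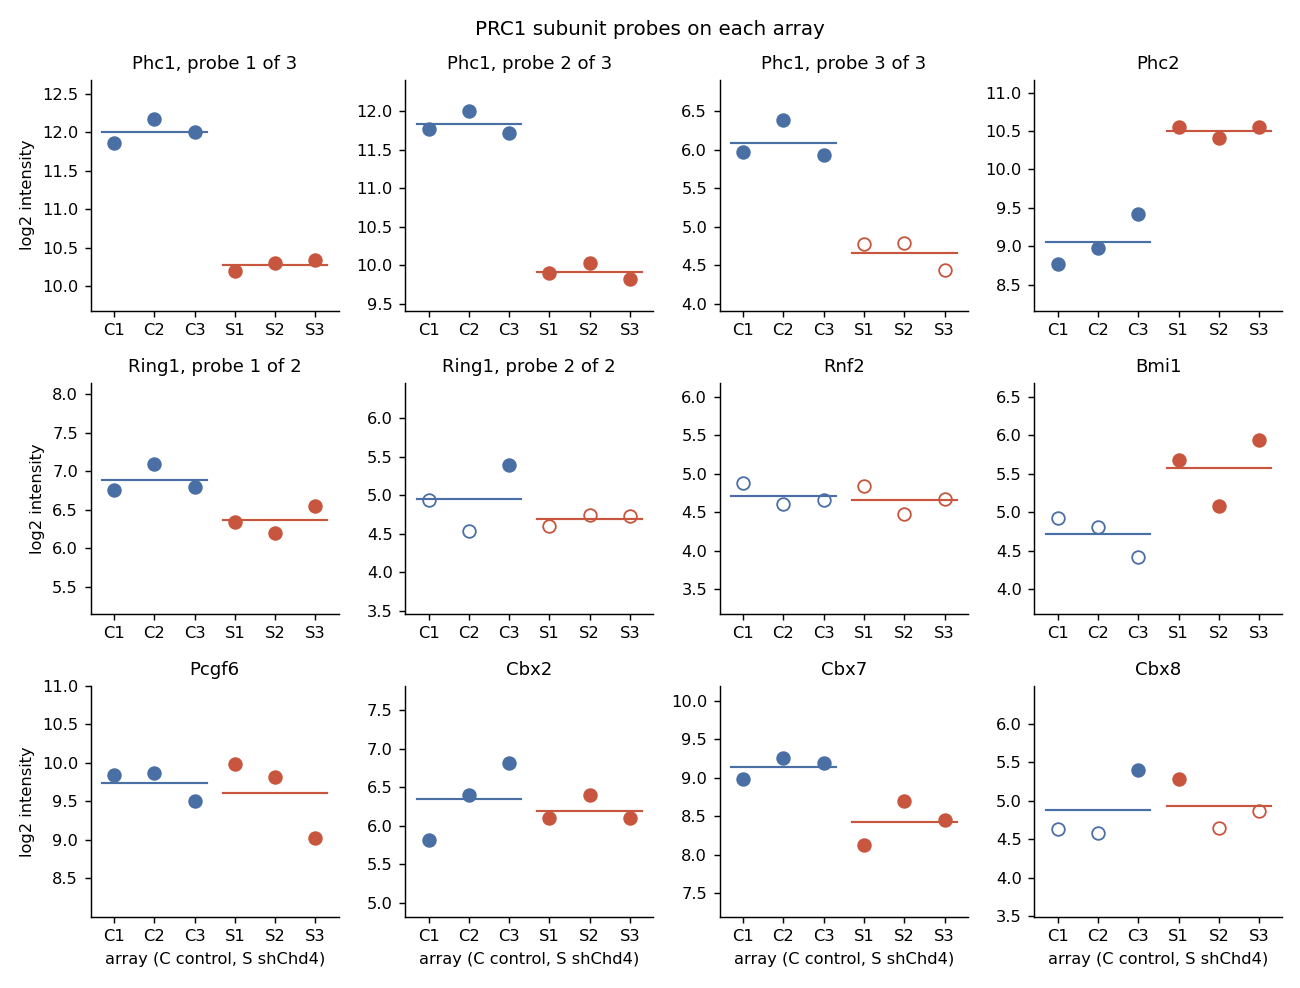
Normalised log2 intensity of each of the 12 probes of the 9 subunit genes on the 3 control (C, blue) and 3 shChd4 (S, red) arrays, with lines at the group means; filled points were detected (detection p under 0.05), open points were not, and every panel spans 3 log2 units. The 3 Phc1 probes are lower and the Phc2 probe is higher on every shChd4 array, while the Rnf2 points are open on all 6 arrays.

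Phc1 encodes the polyhomeotic protein for which ES cells are known. On its brightest probe the control arrays read 11.86, 12.17 and 12.00 (normalised log2 intensity) and the shChd4 arrays 10.20, 10.31 and 10.33. All shChd4 arrays lay well below the lowest control array, and they differed little among themselves. This is a log2 difference of -1.73 ± 0.15 (SE, n = 3 per group), or 30.2% of the control intensity, with a limma adjusted p of 1.38e-05. Before correction the scanner intensity of this probe was 4475 ± 47.8 on control arrays and 1315 ± 11.1 on shChd4 arrays (SD, n = 3 each). The other Phc1 probes were also lower after Chd4 shRNA. The second gave 11.77, 12.00 and 11.72 on control arrays against 9.90, 10.02 and 9.82 on shChd4 arrays, a log2 change of -1.92 ± 0.16 (SE; limma adjusted p = 5.87e-06 over the 14610 probes tested). The dimmest Phc1 probe gave 5.97, 6.39 and 5.93 on control arrays. It was not detected on any shChd4 array, so it is at least 2.32-fold lower (limma adjusted p = 0.000118 over probes). This dim probe passed the detection filter only through the control arrays, where it was higher, so its direction is not independent of that filter. In that fit over probes, 36% of all probes were called.

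Phc2, a paralog of Phc1 with the same SAM domain, moved the other way. Its single probe read 8.78, 8.98 and 9.42 in controls, and 10.55, 10.41 and 10.55 after Chd4 shRNA. The groups did not overlap, and the spread was wider among controls, where array 3 was highest. Phc2 rose 2.72-fold, a log2 difference of 1.44 ± 0.18 (SE, n = 3 per group) with a limma adjusted p of 0.000152. Unprocessed intensities were 642 ± 158 on control arrays and 1516 ± 121 on shChd4 arrays (SD, n = 3 each). The mean of the fibroblast markers, 5.94, 6.40 and 6.48 on control arrays 1, 2 and 3, ran in the same order as Phc2 there. On shChd4 arrays 1, 2 and 3 that mean was 9.09, 8.76 and 9.11, lowest on array 2, where Phc2 was lowest too. Such an order of 3 arrays is not particular to Phc2. Cbx2, which was not called, had the same order on control arrays (5.81, 6.40 and 6.82), as had E2f6 and Pcgf5. Phc3, the remaining paralog, was not well above background on any control array and was not called (limma adjusted p = 0.0587).

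Ring1 and Rnf2 encode the alternative ubiquitin ligases of the complex. The brighter Ring1 probe gave 6.76, 7.09 and 6.80 on control arrays and 6.34, 6.20 and 6.54 on shChd4 arrays. The groups did not overlap, but the gap between them was narrow, from 6.54 to 6.76. The fall of Ring1 came to a log2 difference of -0.52 ± 0.17 (SE, n = 3 per group), with a limma adjusted p of 0.0284. That call was lost with median scaling (adjusted p = 0.107), without control replicate 2 (0.121) and without shChd4 replicate 1 (0.0720) or 2 (0.0817), and ranged from 0.0204 to 0.121 over 15 alternatives. Its unprocessed intensity was 206 ± 2.2 on control arrays and 182 ± 10.7 on shChd4 arrays (SD, n = 3 each), and without background correction the log2 change was -0.27. A second Ring1 probe was detected on 1 array only, control array 3 at 5.39, and was not tested. The Rnf2 probe gave 4.88, 4.60 and 4.67 on control arrays and 4.84, 4.48 and 4.67 on shChd4 arrays. It was not well above background on any of the 6 arrays, so no direction is given for the ligase Rnf2.

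Bmi1 and Pcgf6 encode Pcgf proteins that take the same place beside the ligase, Bmi1 in canonical PRC1 and Pcgf6 in the variant complex with Mga, E2f6 and L3mbtl2. The Bmi1 probe gave 4.93, 4.81 and 4.42 on control arrays, none of them detected, and 5.69, 5.08 and 5.94 on shChd4 arrays, all detected. Array 2 of the shChd4 group was the lowest of its group, as it was for the fibroblast marker mean, while the undetected control values ran in the reverse order of that mean. Bmi1 was at least 1.47-fold higher after Chd4 shRNA, a bound that sets the shChd4 mean against the lowest signal of detected probes on the control arrays (limma adjusted p = 0.0132). Its unprocessed intensity was 117 ± 10.6 on control arrays and 146 ± 15.0 on shChd4 arrays (SD, n = 3 each). The fitted log2 change of 0.85 became 0.28 both without background correction and with the authors' normalised values, and the call was lost there (adjusted p = 0.0558 and 0.0553) and without a detection filter (0.0514). Over its 10 alternatives the adjusted p ranged from 0.00510 to 0.0558. Leaving out any shChd4 array left Bmi1 detected on too few arrays to be tested.

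Pcgf6 was well above background on every array. It gave 9.85, 9.88 and 9.50 on control arrays and 9.98, 9.82 and 9.02 on shChd4 arrays, so the groups overlapped and shChd4 array 3 stood lowest. Its log2 difference was -0.13 ± 0.24 (SE; limma adjusted p = 0.696), with a 95% interval from -0.66 to 0.39. Without shChd4 replicate 3 the estimate was 0.16.

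The Cbx proteins carry the chromodomain that reads the PRC2 mark. Cbx7, the form known from ES cells, gave 8.99, 9.26 and 9.19 on control arrays and 8.13, 8.71 and 8.45 on shChd4 arrays. The groups did not overlap, with shChd4 array 2 the nearest to the controls. Cbx7 stood at 60.7% of the control intensity, a log2 difference of -0.72 ± 0.18 (SE, n = 3 per group; limma adjusted p = 0.00927), and unprocessed intensities were 663 ± 43.7 and 444 ± 52.5 (SD, n = 3 each). Cbx2 gave 5.81, 6.40 and 6.82 on control arrays and 6.10, 6.39 and 6.09 on shChd4 arrays, so every shChd4 value lay within the range of the controls. Its log2 change was -0.15 ± 0.23 (SE; limma adjusted p = 0.653), with a 95% interval from -0.66 to 0.36. The direction of Cbx2 flipped with median scaling (0.0056) and without control replicate 3 (0.089). The Cbx8 probe was detected on 1 array of each group, at 5.41 on control array 3 and 5.28 on shChd4 array 1, and lay between 4.58 and 4.86 on the others, so it was not tested. Cbx2 and Cbx8 are neighbours on chromosome 11, and the other 7 subunit genes lie on chromosomes of their own.

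**Figure D2:**
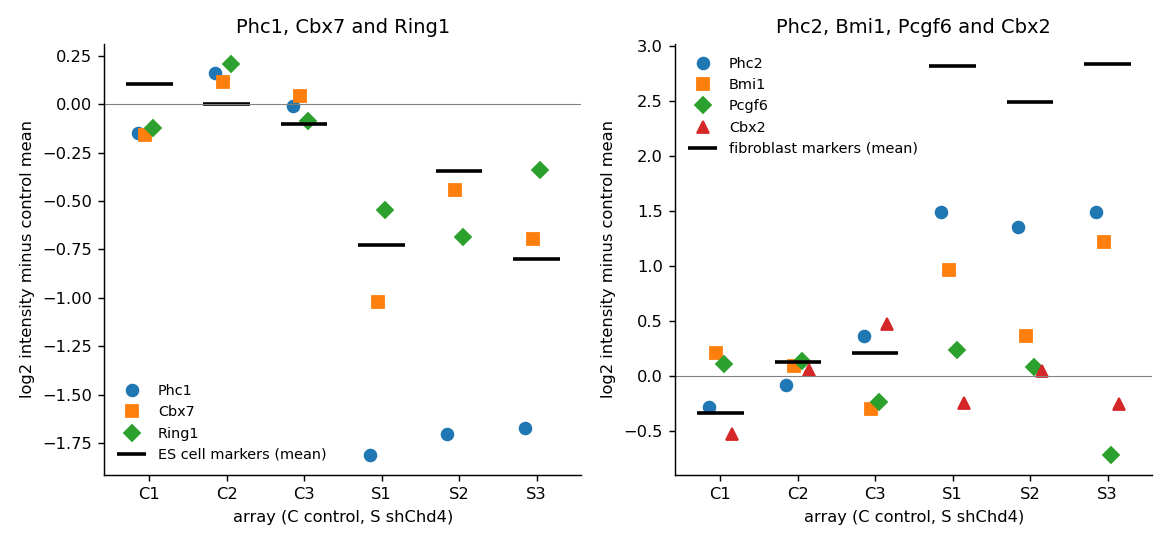
Log2 intensity of the 7 tested subunits on each array minus the control mean of the same gene (C control, S shChd4), with black bars for the mean of 12 ES cell markers (left) or of 19 fibroblast markers (right). Phc1 lies below the ES marker mean on all 3 shChd4 arrays, Cbx7 and Ring1 lie to either side of it, and Phc2 is raised on the arrays where the fibroblast mean is raised; Bmi1 was not detected on the control arrays, so its distances from 0 are no fold.

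The mean of the ES cell markers moved by -0.62 on the log2 scale on the same arrays, and each subunit was also read against their mean on each array. Single markers moved by -1.26 (Pou5f1) to -0.025 (Klf4), and the SE over arrays does not cover that spread. Relative to the ES markers, Phc1 stood at -1.09, -1.36 and -0.88 on shChd4 arrays 1, 2 and 3, a difference of -1.11 ± 0.19 (SE, n = 3 per group; exact permutation p = 0.10, adjusted p = 0.233 over 7 subunits). No smaller p than 0.10 can be had with 3 arrays against 3. Phc2 differed by 2.07 ± 0.31 in the same measure (exact permutation p = 0.10) and was above all control arrays on every shChd4 array. For Bmi1, undetected in controls, no such difference is read. Cbx7 differed by -0.10 ± 0.17 (exact permutation p = 0.50) and Ring1 by 0.099 ± 0.27 (exact permutation p = 0.80), so relative to the mean of these markers their falls were within the spread of the arrays. For Ring1 the sign of this difference turned to -0.012 without control replicate 1 and to -0.078 without shChd4 replicate 3. Cbx2 and Pcgf6 differed by 0.48 ± 0.35 and 0.49 ± 0.27 (exact permutation p = 0.40 and 0.20). Comparing a subunit with the ES marker mean shows unequal change only.

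**Figure D3:**
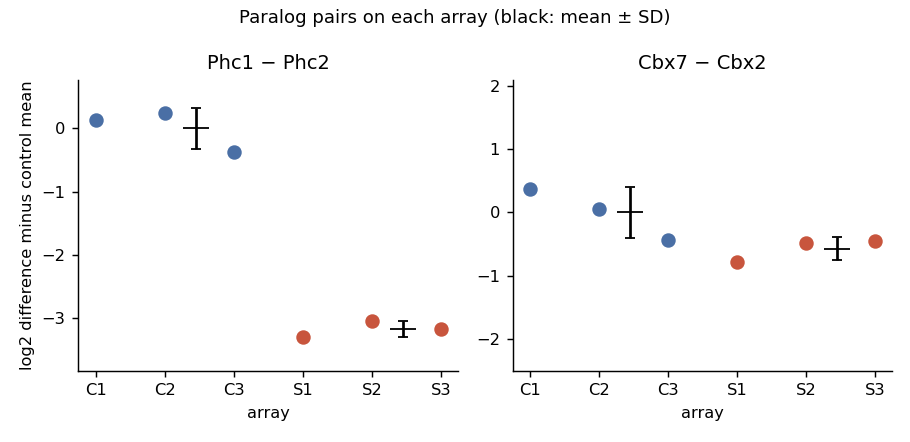
Difference of the log2 intensities of paralogs on each array, set to 0 at the control mean (C control, S shChd4; black, mean ± SD of 3 arrays). Phc1 minus Phc2 lies at -3.05 to -3.30 on the shChd4 arrays, and Cbx7 minus Cbx2 at -0.45 to -0.78.

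The balance between subunits that take the same place in the complex could be read for 2 of 6 pairs listed, since Rnf2 and Cbx8 were not tested and Bmi1 was not above background on any control array. Phc1 minus Phc2 moved by -3.17 ± 0.20 on the log2 scale (SE, n = 3 per group; exact permutation p = 0.10, adjusted p = 0.10 over 3 pairs). The shChd4 arrays stood at -3.30, -3.05 and -3.17 relative to the control mean, and the control arrays at 0.13, 0.24 and -0.37. Cbx7 minus Cbx2 moved by -0.57 ± 0.26 (exact permutation p = 0.10), with control array 3 at -0.43 and the nearest shChd4 array at -0.45. Bmi1 minus Pcgf6, which is not read here, was also among the 3 pairs of the adjustment. The smallest p this design allows is 0.10, so neither of the 2 pairs read could pass.

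Other PRC1 genes changed in both directions. Of 27 listed, 24 were on the array and 23 were tested, of which 3 rose, 6 fell and 14 did not pass. With 38.1% called among all genes tested, a count of 9 of 23 does not set the listed genes apart. Their median log2 change was 0.064, or 0.033 with 1 gene at its bound, and the median over all genes tested was -0.048. Sfmbt2 was on the array but was detected on too few arrays to be tested. The count called was 5 when control replicate 1, or control replicate 2, or shChd4 replicate 1 was left out.

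E2f6, the DNA-binding partner of the Pcgf6 complex, rose by 1.13 ± 0.18 (SE; limma adjusted p = 0.000654). It gave 9.44, 9.85 and 10.04 on control arrays and 10.94, 10.96 and 10.81 on shChd4 arrays. All 4 of its other detected probes were called as higher in the fit over probes, where 36% of all probes were called. The E2f6 probe at 4.93, 4.70 and 4.65 on control arrays was detected on only 3 of the 6 arrays. The direction of that probe is not independent of the detection filter. Mga, the scaffold of that complex, was detected on 2 of 3 shChd4 arrays and differed by -0.63 ± 0.27 (SE), which missed the threshold (limma adjusted p = 0.0858). L3mbtl2, its MBT-domain member, fell by 0.43 (SE 0.15; limma adjusted p = 0.0431) and lost the call when any 1 array was left out (adjusted p 0.0511 to 0.132). Wdr5, a WD repeat protein that the Pcgf6 complex shares with histone H3 methyltransferases, fell by 1.10 (SE 0.17; limma adjusted p = 0.000538). Pcgf6 itself, as given above, overlapped between the groups.

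Kdm2b brings variant PRC1 to CpG islands through its zinc finger. It gave 8.29, 8.45 and 7.89 on control arrays and 7.10, 7.47 and 7.12 on shChd4 arrays and fell, with a log2 difference of -0.98 ± 0.19 (SE; limma adjusted p = 0.00212). All 3 of its other detected probes, which were dimmer, were called as lower in the fit over probes. The Kdm2b probe at 4.72, 4.74 and 4.79 on shChd4 arrays was detected on only 3 of the 6 arrays. The direction of that probe is not independent of the detection filter. The Kdm2b partners Pcgf1 and Bcor differed by 0.076 ± 0.16 and 0.064 ± 0.17 (SE) and were not called (limma adjusted p = 0.745 and 0.799).

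Pcgf2, the paralog nearest to Bmi1, fell by 0.53 (SE 0.15; limma adjusted p = 0.0173), in the direction opposite to Bmi1. Its call was lost without background correction (log2 change -0.20, adjusted p = 0.0692), with the authors' values (0.0690), with median scaling (0.0986) and without control replicate 2 (0.0675). Pcgf5 and its partner Fbrs rose by 0.64 and 0.68 (limma adjusted p = 0.0190 and 0.00500). Without background correction the change of Fbrs was 0.31. The Pcgf5 call was lost without control replicate 1 (adjusted p = 0.0751) and without shChd4 replicate 1 (0.0506) or 3 (0.0641). The deubiquitinase gene Usp7 and the casein kinase gene Csnk2a1 fell by 0.53 and 0.63 (limma adjusted p = 0.0172 and 0.0347). The groups overlapped for Csnk2a1. Either call was lost when single arrays were left out, with an adjusted p of up to 0.0609 for Usp7 and 0.126 for Csnk2a1, for Usp7 also with the mean of its probes (0.0994) and for Csnk2a1 without a detection filter (0.0896). Rybp differed by -0.34 ± 0.16 and Cbx6 by 0.12 ± 0.16 (SE), and neither passed (limma adjusted p = 0.128 and 0.565).

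**Figure D4:**
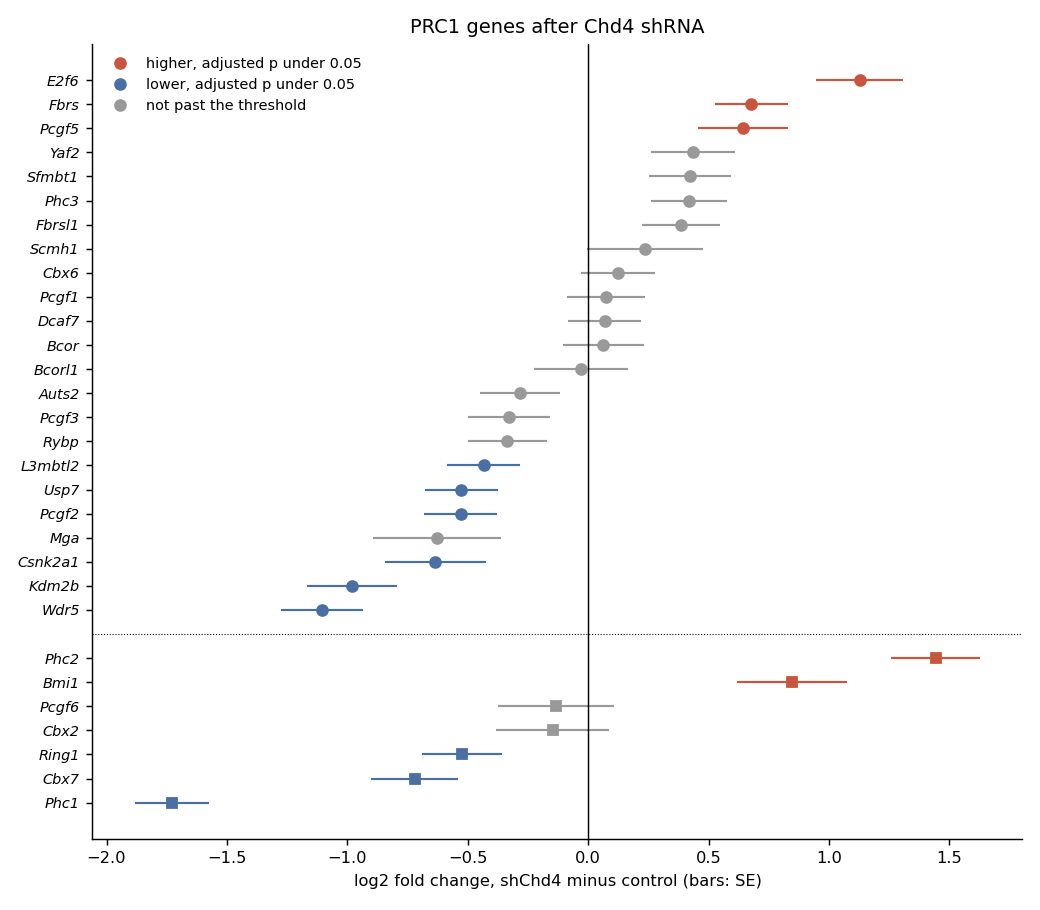
Log2 fold change (shChd4 minus control) with its SE for the 7 tested subunits of the set (squares, below the dotted line) and 23 other PRC1 genes (circles). Phc1 at -1.73 and Phc2 at 1.44 lie farthest from 0 in their directions; E2f6 at 1.13 and Wdr5 at -1.10 lead the other genes, and the fitted values of Bmi1 and Phc3, undetected in controls, are no bounds.

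Genes that remove or read the ubiquitin mark of PRC1 were compared next. Of Bap1, Asxl1, Asxl2, Usp16, Mysm1, Usp21 and Dnajc2, all 7 were tested and 0 were called by limma, against 38.1% of all genes tested. An unadjusted limma p under 0.05 was reached by 1 gene. That gene was Usp16, a deubiquitinase of histone H2A, named after its value was seen, with a log2 change of 0.52 ± 0.19 (SE; limma adjusted p = 0.0562). The median of the list was -0.095.

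Genes listed as silenced by PRC1 in ES cells were mostly below detection in both groups. Not every listed gene was silent on these arrays. Tbx3 gave 9.07, 9.32 and 9.76 and Otx2 8.92, 8.06 and 7.91 on control arrays, and both were detected on all 6 arrays. Of 35 listed, 32 were on the array and 10 were tested, and of these 5 rose and 0 fell, against 19.9% and 18.2% over all genes. The filter favours genes that are high in 1 group, so nothing is read from that count, and with only genes detected on all 6 arrays 2 were called. Cdkn2b, a CDK inhibitor gene, gave 4.99, 5.99 and 6.69 on control arrays and 9.25, 8.71 and 9.08 on shChd4 arrays, a rise of 3.12 ± 0.34 (SE; limma adjusted p = 5.59e-05). It was detected on 2 of the 3 control arrays. Its control values were in the order of the fibroblast marker mean. Among its shChd4 values array 2 was lowest, as in that mean, while arrays 1 and 3 were in the reverse order. Msx1, a homeobox gene, rose by 1.52 ± 0.27 and Gata6, a primitive endoderm factor, by 1.09 ± 0.19 (SE; limma adjusted p = 0.00123 and 0.00130). Msx1 was detected on 1 control array and Gata6 on 2. Irx3 rose by 2.08, and Nkx2-9 by 0.97 (SE 0.20; limma adjusted p = 0.00363). Without background correction all 5 were still called, with smaller log2 changes of 1.96 for Cdkn2b, 0.61 for Msx1, 0.38 for Gata6, 1.38 for Irx3 and 0.40 for Nkx2-9. Cdkn2a, the classical target of Bmi1, differed by 0.21 ± 0.18 (SE) on its brightest probe and was not called (limma adjusted p = 0.375). Of its dimmer probes, 1 differed by 0.69 and was not called (limma adjusted p = 0.0552 over probes). The other was detected on 3 of 6 arrays, with control values of 4.61, 4.67 and 4.80 near background, and no size is given for it. It was called as higher in the fit over probes (limma adjusted p = 0.00140), a direction not independent of the detection filter. The mean of the probes, which includes that dim probe, passed (adjusted p = 0.0134). The sources used here do not say which Cdkn2a transcript each probe reads.

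Starts of transcription were set beside these changes because Phc1 and Cbx7 fell together and Bmi1 rose. RefSeq sequences (GRCm38.p6, 250 bases before to 50 after the start) matched 8 of the 9 genes by symbol, with 10 starts; Cbx2 was not matched. Phc2 has 3 starts, and its probe is not assigned to 1 of them here, so none is shown. Both strands were searched for the GC box GGGCGG, the CCAAT box CCAAT, the E-box CACGTG and the octamer ATGCAAAT, all chosen after the values were seen. Capitals mark matches, and neighbouring GC boxes can overlap. The sequences are from chr6:122340178-122340477 (minus strand), chr15:79932597-79932896 (minus strand) and chr2:18676768-18677067 (plus strand).
Phc1: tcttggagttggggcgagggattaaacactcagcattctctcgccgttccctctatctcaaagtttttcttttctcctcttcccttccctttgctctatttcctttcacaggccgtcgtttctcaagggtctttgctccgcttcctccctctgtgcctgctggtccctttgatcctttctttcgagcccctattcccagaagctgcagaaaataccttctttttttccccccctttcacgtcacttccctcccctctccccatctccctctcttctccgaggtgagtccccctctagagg
Cbx7: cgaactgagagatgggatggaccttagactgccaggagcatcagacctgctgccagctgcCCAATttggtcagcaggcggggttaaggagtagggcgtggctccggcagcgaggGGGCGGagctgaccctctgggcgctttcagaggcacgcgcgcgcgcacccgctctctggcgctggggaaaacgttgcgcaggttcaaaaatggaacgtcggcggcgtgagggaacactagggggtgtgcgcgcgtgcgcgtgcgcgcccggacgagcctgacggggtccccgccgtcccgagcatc
Bmi1: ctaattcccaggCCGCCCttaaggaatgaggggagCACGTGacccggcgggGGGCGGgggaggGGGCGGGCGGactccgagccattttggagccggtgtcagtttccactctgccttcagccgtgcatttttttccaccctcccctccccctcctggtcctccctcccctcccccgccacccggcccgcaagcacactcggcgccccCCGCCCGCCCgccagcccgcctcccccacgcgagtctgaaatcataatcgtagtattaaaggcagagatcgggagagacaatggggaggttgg
The Phc1 window holds 0 matches to these motifs, the Cbx7 window 1 GC box and 1 CCAAT box, and the Bmi1 window 6 GC boxes and 1 E-box. Among 32851 windows of the same length, 35.7% hold a GC box, 37.4% a CCAAT box, 7.15% an E-box and 1.735% the octamer. Phc1 has 9 CpG dinucleotides, Bmi1 23 and Cbx7 33, and the median window has 7. A match is a description of letters, and of the 3 falling subunits Cbx7 shares the GC box with Ring1, whose window holds 3, and Phc1 holds none of these motifs. The GC box is not particular to falling subunits. It is also in the windows of Bmi1, Pcgf6, Rnf2 and Cbx8 and of Phc2 starts 1 and 3.

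Profiles most like those of Phc2 and Phc1 were found by the root mean square distance over the 6 arrays after each gene's mean was removed. Nearest to Phc2 were Dbndd2 (distance 0.044 log2 units), Errfi1 (0.075) and Efna5 (0.076), which rose by 1.41, 1.45 and 1.36. Nearest to Phc1 were Shisa2 (0.070), Fam111a (0.093) and Aasdh (0.115), with log2 changes of -1.63, -1.71 and -1.86. With 3 arrays per group such likeness rests mainly on the group difference.

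**Figure D5:**
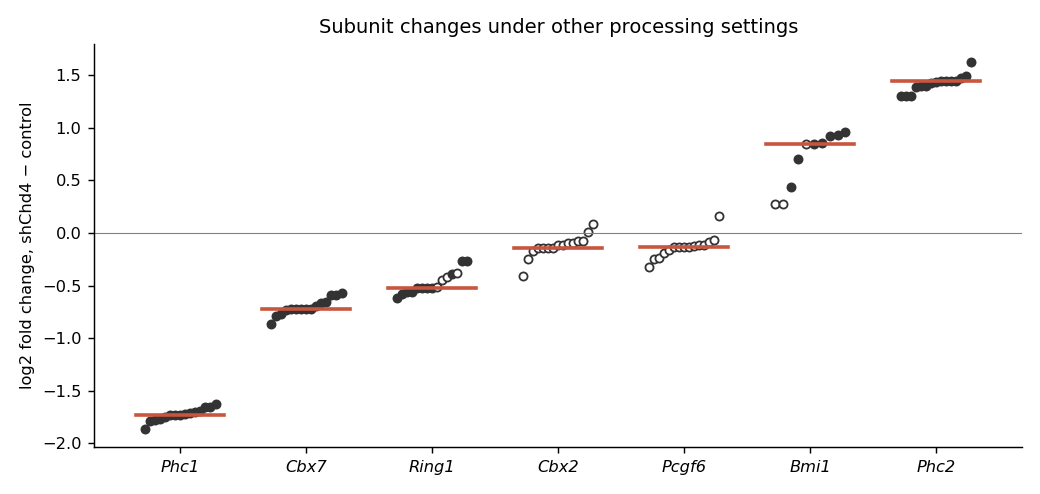
Log2 fold change of each tested subunit under every alternative that gave a value (points; filled where the limma adjusted p was under 0.05, open where not), with the reported value as a red line. Phc1, Cbx7 and Phc2 are filled throughout, Ring1 and Bmi1 are mixed, and Cbx2 and Pcgf6 are open throughout and cross 0.

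The subunit calls differed in how far they depended on the processing. Phc1, Phc2 and Cbx7 were called in 15 of 15 alternatives, with log2 changes from -1.86 to -1.63 for Phc1, from 1.30 to 1.62 for Phc2 and from -0.86 to -0.58 for Cbx7. Ring1 was called in 11 of 15 and Bmi1 in 7 of the 10 in which it was tested. Pcgf6 and Cbx2 were called in 0 of 15. Without shChd4 replicate 1 or without shChd4 replicate 2, the number of subunits called was 3, namely Phc1, Phc2 and Cbx7.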

How the data were processed

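For 45281 probes on 6 arrays the deposited scanner output gives intensity on a linear scale. Detection p-values stand beside it, per the file headers. The submitters' processing notes name GenomeStudio. Its medians, 110.9 to 118.9, showed no background subtraction or scaling. The authors' series matrix holds the same intensity values after a normalisation that made the quantiles of the arrays nearly identical (medians 115.16 to 115.19), which was run as an alternative. Normexp background correction used the detection p-values; an offset of 16, the log2 scale and quantile normalisation followed (neqc, limma 3.58.1, R 4.3.3). Probe symbols came from GEO's platform annotation: 34885 probes had 1 symbol, 18 several and 10378 none. Symbols were updated through RefSeq (GRCm38.p6, names only; 34807 matched). Each gene was read from its brightest probe, and limma with Benjamini-Hochberg adjustment compared the groups. Steps were tested on simulated arrays. Subunits were read with every probe. Other genes were named by fixed rules: the smallest p in each list, up to 8 per direction (6 for silenced targets), and Pcgf2, Cbx6, Rybp, Kdm2b and Cdkn2a whatever their values. Phc3, Mga, Pcgf1 and Bcor were named after their values were seen, as relatives or partners of subunits. The subunits and lists were chosen with earlier results of these data known. Arrays give no read depth, so their number limits the precision.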

Additional observations from a re-analysis of the deposited data

How the results depend on the processing

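Alternatives were no background correction, the authors' values, median scaling, an offset of 50, no detection filter, detection on all 6 arrays, detection p under 0.01, array weights, the mean of detected probes, and leaving out each array. The comparison with ES markers and the counts for silenced genes and marker lists were added after seeing the data. The count of 3735 genes called ranged from 2803 to 3900 and that of 5263 probes from 3861 to 5463. Leaving out arrays gave 3 to 5 called subunits, 5 to 10 called other PRC1 genes and 5 to 6 called silenced genes. With detection on all 6 arrays 2 silenced genes were called, as fewer genes were tested. Differences between paralogs kept their direction in each alternative run, from -3.34 to -3.03 for Phc1 minus Phc2 when arrays were left out. Cbx2 turned to 0.0056 with median scaling, and ranged from -0.41 to 0.089 without single arrays. Pcgf6 ranged from -0.32 to 0.16, and Ring1 relative to the ES markers from -0.078 to 0.32. The cause of these turns was not tested. Bmi1 and Cbx8 lie near background, where intensity over background and not the number of arrays alone limits what can be read. No paired analysis was possible because the labels give the arrays no replicate numbers.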

Other observations

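Markers of other early lineages were also read. Of 7 primitive endoderm markers, 3 were tested and all 3 rose, against 19.9% of all genes, and the other 4 were detected on too few arrays. Dab2 rose by 1.37 ± 0.23 on the log2 scale (SE, n = 3 per group; limma adjusted p = 0.000938) and Gata6 by the amount given above. Sox7 was below detection in all 3 controls and was at least 1.36-fold higher (limma adjusted p = 0.0253), and it passed the filter only through the shChd4 arrays, where it is high. Of 6 trophectoderm markers, 4 were tested and 1 rose, Tfap2c by 1.24 ± 0.19 (SE; limma adjusted p = 0.000428), a factor that ES cells also express. These genes were named after their values were seen.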
